A study of Mus musculus with 13 samples.

Results

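The genes described here are 38 genes of fatty acid oxidation: the enzymes and carriers of the pathway in mitochondria, the enzymes of its peroxisomal counterpart, the acyl-CoA synthetases that feed both, and 4 regulators or partners. Members were found by gene name among the non-control probes of the arrays, with Dci read as Eci1 and Peci as Eci2. All 38 had a probe, out of 28257 gene names on the array, and 56 probes matched in all (25 members with 1 probe each, 13 with several). The RNA came from bone marrow-derived macrophages of male C57BL/6 mice aged 12 to 16 weeks, grown for 6 days in 30% L929 conditioned medium, a source of macrophage growth factor. The 4 groups were HDAC3 knockout (KO) macrophages given interleukin 4 (IL-4; 3 arrays), control macrophages given IL-4 (3 arrays), KO macrophages given vehicle (3 arrays) and control macrophages given vehicle (4 arrays). KO cells carried floxed HDAC3 together with Cre under the lysozyme M promoter, which drives expression in myeloid cells. Control cells carried the same floxed allele, with loxP sites around exons 4 to 7, and no Cre. IL-4 was given at 10 ng/mL and vehicle was 0.1% bovine serum albumin, each for 24 hours. The design asks how loss of HDAC3, a histone deacetylase that works in nuclear receptor corepressor complexes, and IL-4, a cytokine of alternative macrophage activation, change expression.

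In β-oxidation a fatty acid is first joined to coenzyme A by an acyl-CoA synthetase, and long chains then enter mitochondria as carnitine esters. Inside, an acyl-CoA dehydrogenase, an enoyl-CoA hydratase, a hydroxyacyl-CoA dehydrogenase and a thiolase shorten the chain in a repeated cycle, and the dehydrogenases pass their electrons to the electron transfer flavoprotein. Peroxisomes run a parallel cycle whose opening step is an acyl-CoA oxidase, acting on very long and branched chains. Fatty acid oxidation is known as a pathway raised in macrophages activated by IL-4.

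Each value below is a log2 level, the log2 of the background-corrected signal minus the 75th percentile of the same array, so that 0 is the 75th percentile and levels of different probes are not set against each other. A gene was tested where at least 1 group had its probe well above background on all of that group's arrays, and where several probes passed, the brightest was used. This left 35 of the 38 members among 20894 genes. Of these 35, 34 were well above background on all 13 arrays, against 78.4% of all genes tested. The call was a limma adjusted p under 0.05 (Benjamini-Hochberg over all 20894 genes). Nothing in the labels tells whether a group's arrays stand for different mice or dishes, and the p-values therefore reflect only the scatter among these arrays, which may be technical. In RNA of whole cultures, fewer cells of a type and less RNA per cell cannot be told apart.

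Hdac3, the targeted gene, averaged -3.57 ± 0.46 on KO IL-4 arrays and -2.04 ± 0.26 on control IL-4 arrays (SD, n = 3 each), a log2 fold change of -1.53 (adjusted p = 0.00381, limma), with 2 of the 3 KO arrays well above background. With vehicle it averaged -3.46 ± 0.28 on KO arrays (n = 3) and -2.05 ± 0.21 on control arrays (n = 4), a log2 fold change of -1.41 (adjusted p = 0.00292, limma). The place of its probe with respect to the deleted exons is not known here. Spots well above background made up 56.2% to 83.2% of each array and no spot was saturated. The 75th percentile signal, to which each array was scaled, differed between groups. It was 533 to 593 on control vehicle arrays and 635 to 655 on KO vehicle arrays. On control IL-4 arrays it was 670 to 726, and on KO IL-4 arrays 639 to 798, highest on array 14. The part of this signal in the results below was not tested. All 8 macrophage markers looked at (such as Csf1r, Adgre1 and Lyz2) were well above background on every array. Their summed level, with each array's 75th percentile set to 100, was 42080 to 45627 on KO IL-4 arrays, 38519 to 40754 on control IL-4 arrays, 46208 to 49121 on KO vehicle arrays and 48292 to 54154 on control vehicle arrays. The summed level was thus lower on every IL-4 array than on every vehicle array of the same genotype. Single markers passed in either direction: IL-4 lowered Cd14 (-1.36 in KO cells, -2.17 in control cells) and Fcgr1 (-0.81 in each), and in control cells Mertk (-0.90) and Lyz2 (-0.43). Loss of HDAC3 raised Itgam (1.84 under IL-4, 1.43 with vehicle), Cd14 and Mertk under IL-4 (0.88 and 0.73) and Csf1r with vehicle (0.41), and lowered Fcgr1 (-0.68 under each). The part of these markers in the results below was not tested. Neutrophil markers summed to 288 to 1078, fibroblast markers to 398 to 569, and 6 other cell type lists to at most 156. The neutrophil gene Elane and the dendritic cell gene Ccr7 were well above background on no array. Other markers of these lists were: in each group, 4 to 5 of 7 neutrophil and 2 of 3 dendritic cell markers were well above background on every array. So were 4 to 5 of 5 fibroblast, 2 of 3 B cell and 1 of 3 T cell markers. Of the markers with a probe, 2 of 2 erythroid, 1 to 2 of 2 eosinophil and 0 to 2 of 3 mast cell markers were too. The arrays lay on 4 slides, and each group sat at 1 position of every slide it was on, and thus array position cannot be told apart from group.

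Few of the 35 genes passed the test in any comparison. With IL-4, 0 members rose and 1 fell in KO cells, against 1.12% and 1.1% of all genes tested (limma), and 14 members reached an unadjusted p under 0.05, against 12.4% of all genes. In control cells, 2 rose and 1 fell with IL-4, against 2.64% and 3.05%, with 12 members at an unadjusted p under 0.05, against 14.5%. Loss of HDAC3 raised 1 member and lowered 0 under IL-4, against 1.94% and 1.65%, with 6 members at an unadjusted p under 0.05, against 14.9%. With vehicle, loss of HDAC3 raised 2 members and lowered 1, against 2.39% and 2.29%, with 7 at an unadjusted p under 0.05, against 13.6%. The genes called were Acsl3, Echs1, Hadhb and Acox3, and they came from 3 steps of the pathway: activation, the mitochondrial cycle and the opening peroxisomal step. The difference between the genotypes in the response to IL-4 (the interaction) gave 0 calls among the members in limma and 0 at an unadjusted p under 0.05, against 0.00479% of all genes called and 3.91% at that unadjusted p.

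A count of genes whose arrays did not overlap between groups gave more members in 1 direction. On KO arrays, 14 of the 35 members lay higher with IL-4 on every array than on any vehicle array and 1 lay lower, against 8.05% and 10.5% of all genes tested. On control arrays, 11 lay higher with IL-4 and 3 lower, against 8.26% and 8.41%. These comparisons share no arrays, but they share slides, and array position cannot be told apart from group in either. The members that lay higher in both were Hadha, Hadhb, Echs1, Acaa2, Acad9, Decr1, Etfa, Etfb and Ech1, 9 of 35, where 3.88% of all genes did so. These 9 made up 64.3% of the 14 and 81.8% of the 11, and over all genes the like shares were 48.2% and 47%. For Hadha, Acad9 and Decr1 the other probes that passed the filter on background gave smaller or opposite differences (values below). Hadhb, Echs1, Acaa2, Etfa, Etfb and Ech1 had 1 probe each, with no other to set beside it. Of the 9 members higher in both, 8 are mitochondrial and Ech1 is found in mitochondria and peroxisomes. The IL-4 counts moved with single arrays, as did the share of all genes lying higher. In control cells the 11 and 3 were 11 and 5 without control IL-4 array 9 (11.2% of all genes higher). They were 16 and 4 without control IL-4 array 10 (14.3%) and 14 and 3 without control vehicle array 4 (9.94%). In KO cells the 14 and 1 were 14 and 3 without KO IL-4 array 14 (11.6%) and 16 and 2 without KO IL-4 array 13 (12.6%). They were 17 and 1 without KO IL-4 array 15 (13.3%) and 18 and 1 without KO vehicle array 6 (11.8%). Loss of HDAC3 put 5 members higher and 3 lower without overlap under IL-4, against 8.72% and 9.06%, and 8 higher and 1 lower with vehicle, against 8.8% and 8.04%. The members that lay higher in both were Acox3, Echs1, Acadl and Acsl4, 4 of 35, where 4.57% of all genes did so. They made up 80% of the 5 and 50% of the 8, against 52.3% and 51.9% over all genes, so the share of the 8 was near that of all genes. These HDAC3 counts moved with single arrays, as did the share of all genes lying higher. Under IL-4 they were 11 higher and 3 lower without control IL-4 array 9 (14.4% of all genes higher). They were 9 and 4 without KO IL-4 array 13 (12.2%) and 8 and 4 without control IL-4 array 12 (11.3%). Without KO IL-4 array 15 they were 8 and 4 (13.2%), and without KO IL-4 array 14 they were 5 and 5 (14.8%). With vehicle they were 8 higher and 8 lower without control vehicle array 2 (12.6%). They were 13 and 1 without KO vehicle array 7 (15.4%) and 8 and 3 without KO vehicle array 5 (11.4%). Without KO vehicle array 6 they were 10 and 3 (11.2%). With an array left out, 8.72% to 14.8% of all genes lay higher under IL-4 and 8.8% to 15.4% with vehicle. The share of all genes lying lower is not given for any array left out, so those lower counts stand without one.

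The probes read a stretch of 60 bases each, and the results turn on the following, shown with the probe strand and mm9 position from the array files. They are the probes of the 4 genes that passed the test, and the 3 probes named Hadha, which gave different answers.
Acsl3, chr1:78702965-78703024 (+): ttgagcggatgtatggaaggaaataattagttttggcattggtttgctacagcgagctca
Echs1, chr7:147291772-147291831 (-): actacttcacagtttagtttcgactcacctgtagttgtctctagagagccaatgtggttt
Hadhb, chr5:30510794-30510853 (+): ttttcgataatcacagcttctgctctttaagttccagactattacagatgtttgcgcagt
Acox3, chr5:35956215-35956274 (+): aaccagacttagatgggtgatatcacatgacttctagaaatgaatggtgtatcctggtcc
Hadha, RefSeq transcript, chr5:30446215-30446274 (-): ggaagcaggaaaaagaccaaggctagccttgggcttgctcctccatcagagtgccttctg
Hadha, cDNA clone AK035316, chr5:30473804-30473863 (-): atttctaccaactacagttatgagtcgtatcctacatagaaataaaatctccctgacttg
Hadha, cDNA clone AK050856, chr5:30480638-30480697 (-): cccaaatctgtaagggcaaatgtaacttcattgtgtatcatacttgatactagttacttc
Whether each lies in a coding exon, an untranslated region or an intron was not determined here, since no annotation of that build was used.

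Acyl-CoA synthetases carry out the activation that precedes oxidation, and also supply lipid synthesis. Acsl3, a long-chain synthetase of the endoplasmic reticulum and lipid droplets, fell with IL-4 in both genotypes. It stood at -1.37, -1.36 and -1.14 on the KO IL-4 arrays, -1.11, -1.10 and -1.14 on the control IL-4 arrays, -0.47, -0.58 and -0.20 on the KO vehicle arrays, and -0.18, 0.15, 0.17 and 0.18 on the control vehicle arrays. Every IL-4 array was below every vehicle array, and among the vehicle arrays every KO array was below every control array. In KO cells the log2 fold change with IL-4 was -0.87 (SE 0.131, adjusted p = 0.00398, limma), 0.546 of the vehicle level. In control cells it was -1.20 (SE 0.122, adjusted p = 0.000113, limma), 0.435 of the vehicle level. The KO call was lost when only the groups compared were fitted (adjusted p = 0.0842, limma). With vehicle, loss of HDAC3 lowered Acsl3 by a log2 fold change of -0.50 (SE 0.122, adjusted p = 0.0412, limma), a call lost in 14 of 26 other settings, with slide as a fixed block (0.0518) and without KO vehicle array 5 or 6, control vehicle array 2, 3 or 4, KO IL-4 array 13, or control IL-4 array 9, 10 or 12 (0.0515 to 0.210) among them. Under IL-4 the KO arrays were not separated from the control arrays (-0.17, 95% interval -0.46 to 0.12). The other synthetases did not pass. Acsl1, the main long-chain synthetase of many tissues, averaged 2.35 ± 0.07 on control IL-4 arrays (n = 3) and 2.65 ± 0.07 on control vehicle arrays (SD, n = 4), without overlap, a log2 fold change of -0.30 (adjusted p = 0.147, limma). Acsl4, which prefers arachidonic acid, differed by -0.18 with IL-4 in control cells, also without overlap, and Acsl5 by 0.08. In KO cells these 3 differed by -0.15, -0.06 and 0.04 with IL-4, with overlap.

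**Figure D1:**
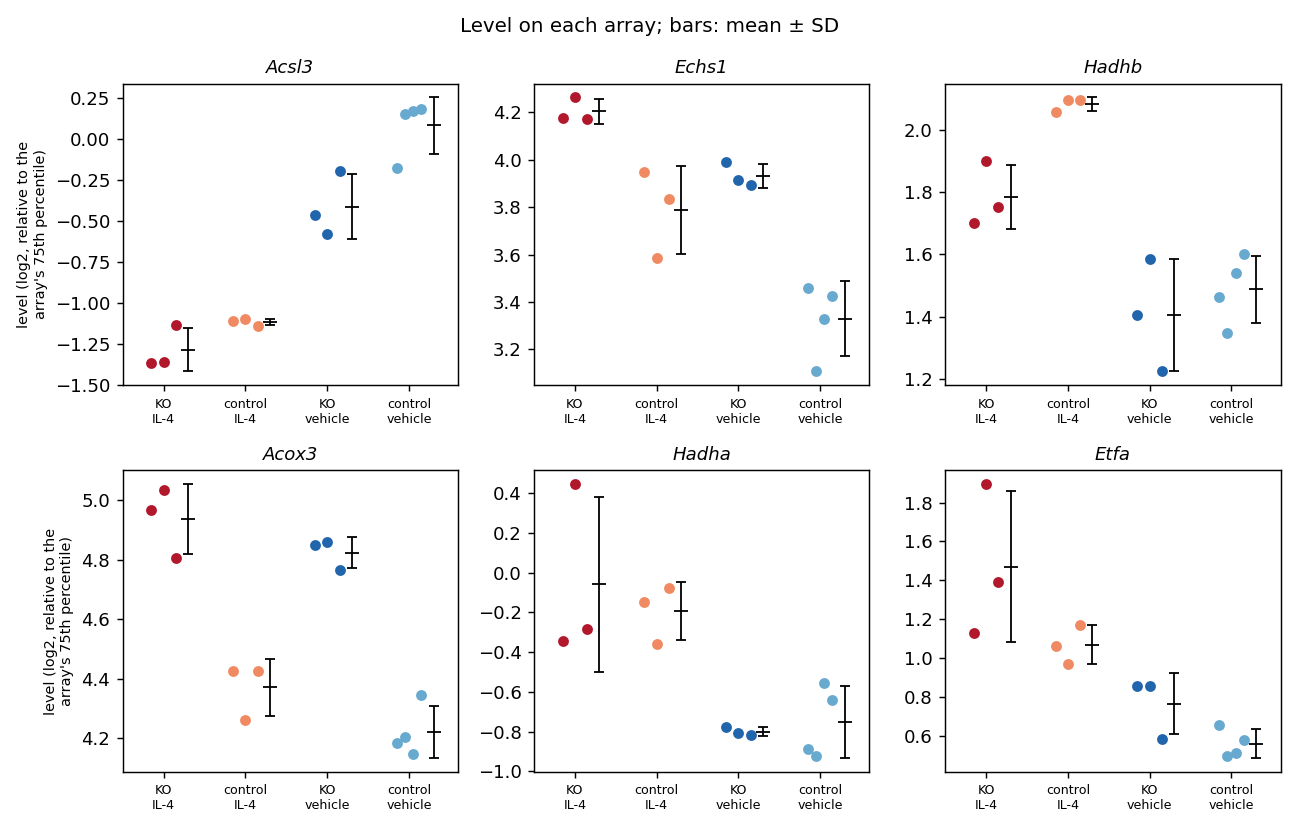
Log2 level relative to the array's 75th percentile (y axis; scales differ between panels) of 6 genes on each of the 13 arrays, by group (x axis), with the mean and SD beside the points. Acsl3 is lower on every IL-4 array than on every vehicle array, and Acox3 is higher on every KO array than on every control array. KO IL-4 array 14 is the highest point of its group for every gene shown except Acsl3.

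Of the 4 genes of the carnitine shuttle, 0 passed limma's test in any of the 4 comparisons between groups, and 1 value (Cpt2 with IL-4 in KO cells) reached an unadjusted p under 0.05. Over all genes, 1.1% to 3.05% passed in a direction and 12.4% to 14.9% reached that unadjusted p. The 4 genes are too few to set against these shares. Cpt1a, the outer-membrane carnitine palmitoyltransferase that limits the entry of long chains, stood at 3.78, 4.15 and 3.67 on KO IL-4 arrays, 3.85, 3.42 and 3.64 on control IL-4 arrays, 3.78, 3.90 and 3.52 on KO vehicle arrays, and 3.65, 3.44, 3.54 and 3.63 on control vehicle arrays. The groups overlapped in all 4 comparisons. With IL-4 it differed by 0.13 in KO cells (95% interval -0.21 to 0.47) and by 0.07 in control cells (-0.25 to 0.39). Cpt2, the inner-membrane enzyme that returns the chain to coenzyme A, stood at -0.37, 0.12 and -0.19 on KO IL-4 arrays and -0.47, -0.65 and -0.59 on KO vehicle arrays, without overlap. Its log2 fold change with IL-4 in KO cells was 0.42 (adjusted p = 0.187, limma), and 0.29 without KO IL-4 array 14. In control cells the arrays were -0.20, -0.47 and -0.42 with IL-4 and -0.48, -0.69, -0.43 and -0.39 with vehicle, and the groups overlapped (0.13). The carrier Slc25a20, which moves acylcarnitines across the inner membrane, differed by 0.04 in KO cells and by -0.01 in control cells. Cpt1b, the muscle form, differed by 0.06 and -0.30, and the accessions of its probes also list the gene model Gm44502, so its identity is uncertain.

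The acyl-CoA dehydrogenases open each mitochondrial round, each for its own chain length. Of 7 members 6 were tested and 0 passed limma's test in any comparison (4 values over the 4 comparisons reached an unadjusted p under 0.05). The shares of all genes were 1.1% to 3.05% called in a direction and 12.4% to 14.9% at that unadjusted p. These 6 genes are too few to set against them. Acads, the short-chain enzyme, was well above background on no array. Acadm, the medium-chain enzyme, stood at 2.16, 2.42 and 2.24 on KO IL-4 arrays, 2.09, 2.02 and 2.19 on control IL-4 arrays, 2.12, 2.17 and 1.98 on KO vehicle arrays, and 1.85, 1.77, 2.06 and 2.11 on control vehicle arrays. Its groups overlapped in all 4 comparisons, with log2 fold changes between 0.14 and 0.18. Acadl, the long-chain enzyme, stood at 1.86, 1.90 and 1.65 on KO IL-4 arrays, 1.57, 1.51 and 1.64 on control IL-4 arrays, 1.63, 1.66 and 1.47 on KO vehicle arrays, and 1.40, 1.09, 1.20 and 1.46 on control vehicle arrays. The KO arrays lay above the control arrays under IL-4 (0.23, adjusted p = 0.424, limma) and with vehicle (0.30, adjusted p = 0.225). With IL-4, Acadl differed by 0.29 in control cells, without overlap, and by 0.22 in KO cells, with overlap. Acadvl, the very-long-chain enzyme, differed by 0.32 with IL-4 in KO cells without overlap (adjusted p = 0.365) and by 0.10 in control cells. Acad9, known also as an assembly factor of respiratory complex I, differed by 0.24 and 0.17, without overlap in either genotype, and a dimmer probe gave 0.07 and -0.06. Acadsb, which acts on short branched chains, and Acad10 differed by -0.10 each in KO cells, with overlap.

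The further steps of the mitochondrial cycle held the 2 members that rose and passed with IL-4 in control cells, where 2.64% of all genes did so. Hadhb, the thiolase subunit of the mitochondrial trifunctional protein, stood at 2.06, 2.09 and 2.09 on control IL-4 arrays and 1.46, 1.35, 1.54 and 1.60 on control vehicle arrays. The IL-4 arrays were all above the vehicle arrays, a log2 fold change of 0.59 (SE 0.104, adjusted p = 0.00487, limma) or 1.51-fold, and the call held in 26 of 26 other settings. In KO cells Hadhb stood at 1.70, 1.90 and 1.75 with IL-4 and 1.41, 1.58 and 1.22 with vehicle, also without overlap (0.38, adjusted p = 0.131, limma). The genotypes' responses differed by -0.22 (95% interval -0.55 to 0.12, unadjusted p = 0.185, limma), and under IL-4 every KO array was below every control array (-0.30, adjusted p = 0.216).

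Hadha encodes the other subunit, with hydratase and dehydrogenase activity, and lies head to head with Hadhb. Its RefSeq probe stood at -0.34, 0.45 and -0.28 on KO IL-4 arrays and -0.78, -0.80 and -0.82 on KO vehicle arrays. In control cells it stood at -0.15, -0.36 and -0.08 with IL-4 and -0.89, -0.92, -0.55 and -0.64 with vehicle. In both genotypes every IL-4 array was above every vehicle array, and neither difference passed: 0.74 in KO cells (SE 0.190, adjusted p = 0.0815, limma) and 0.56 in control cells (SE 0.178, adjusted p = 0.113, limma). Without KO IL-4 array 14 the KO difference was 0.49 (adjusted p = 0.140), while the control difference, unchanged in size, passed (adjusted p = 0.0125). The dimmer clone probes shown above, both inside the span of mm9 positions between the RefSeq probes of Hadha and Hadhb, differed by -0.21 and -0.31 in KO cells and by -0.02 and 0.03 in control cells, so the 3 probes disagree.

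The promoter windows of this gene pair are shown because the genes of the 2 subunits start on either side of the same stretch and run away from it on opposite strands. Hadhb and the RefSeq probe of Hadha lay higher with IL-4 on every array in both genotypes. The clone probes of Hadha did not rise in KO cells (-0.21 and -0.31). Whether the shared stretch has a part in these values was not tested. Each sequence is the RefSeq window of 250 bases before to 50 after the gene's start (GRCm38.p6), read along the gene. Capitals mark the 228 bases that the windows share, chr5:30155003-30155230, of which 57.0% are G or C.
Hadha, chr5:30154931-30155230 (-): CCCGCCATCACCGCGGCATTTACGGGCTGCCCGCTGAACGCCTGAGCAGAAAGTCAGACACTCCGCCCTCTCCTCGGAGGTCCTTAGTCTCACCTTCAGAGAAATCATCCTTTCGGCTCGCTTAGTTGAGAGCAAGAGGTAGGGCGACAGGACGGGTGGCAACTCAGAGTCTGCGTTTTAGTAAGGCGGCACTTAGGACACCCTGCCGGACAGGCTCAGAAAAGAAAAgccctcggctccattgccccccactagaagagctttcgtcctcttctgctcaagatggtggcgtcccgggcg
Hadhb, chr5:30155003-30155302 (+): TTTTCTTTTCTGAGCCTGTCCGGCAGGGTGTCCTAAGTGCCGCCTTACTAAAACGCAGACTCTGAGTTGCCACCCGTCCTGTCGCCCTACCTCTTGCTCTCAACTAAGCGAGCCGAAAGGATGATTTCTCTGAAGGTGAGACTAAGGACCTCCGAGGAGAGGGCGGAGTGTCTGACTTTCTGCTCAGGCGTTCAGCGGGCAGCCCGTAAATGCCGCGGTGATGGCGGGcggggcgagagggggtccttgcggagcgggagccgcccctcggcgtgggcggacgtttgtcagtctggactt
The starts lie 273 bases apart.

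Echs1, the short-chain enoyl-CoA hydratase of the mitochondrial matrix, passed for loss of HDAC3 with vehicle and for IL-4 in control cells, rising in both. It stood at 4.17, 4.26 and 4.17 on KO IL-4 arrays, 3.95, 3.59 and 3.84 on control IL-4 arrays, 3.99, 3.91 and 3.89 on KO vehicle arrays, and 3.46, 3.11, 3.33 and 3.43 on control vehicle arrays. The control vehicle arrays were the lowest and the KO IL-4 arrays the highest, and no 2 of the groups compared overlapped. With vehicle, loss of HDAC3 raised it by a log2 fold change of 0.60 (SE 0.112, adjusted p = 0.00902, limma), 1.52-fold, a call lost with median scaling (0.0934) and without KO vehicle array 5 (0.0568). Under IL-4 the difference was 0.41 (SE 0.119, adjusted p = 0.0996, limma). With IL-4 it rose by 0.46 in control cells (SE 0.112, adjusted p = 0.0327, limma), a call lost in 12 of 26 other settings, 7 of them without control IL-4 array 9 or 12, KO vehicle array 5 or 6, or control vehicle array 2, 3 or 4 (0.0507 to 0.138). In KO cells it differed by 0.27 (adjusted p = 0.378, limma), and the responses differed by -0.19 (95% interval -0.55 to 0.17).

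Acaa2, the mitochondrial thiolase for medium and long chains, stood at 3.86, 4.34 and 3.89 on KO IL-4 arrays, 3.97, 3.48 and 3.60 on control IL-4 arrays, 3.70, 3.76 and 3.55 on KO vehicle arrays, and 3.33, 3.04, 3.28 and 3.37 on control vehicle arrays. The control vehicle arrays were below all other arrays, and its 4 log2 fold changes, from 0.35 to 0.43, did not pass. Hadh, the hydroxyacyl-CoA dehydrogenase for short and medium chains, overlapped between groups in all 4 comparisons and was well above background on 12 of 13 arrays. Its log2 fold change for loss of HDAC3 was 0.61 under IL-4 and 0.53 with vehicle, and neither passed. Its SD on control vehicle arrays was 0.63 (n = 4). Of the auxiliary enzymes for unsaturated chains, Decr1 differed by 0.20 in KO cells and 0.23 in control cells with IL-4, without overlap, but a dimmer probe of Decr1 went the other way (-0.17 and -0.13), so its probes disagree. Eci1 differed by 0.18 and 0.10, with overlap.

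**Figure D2:**
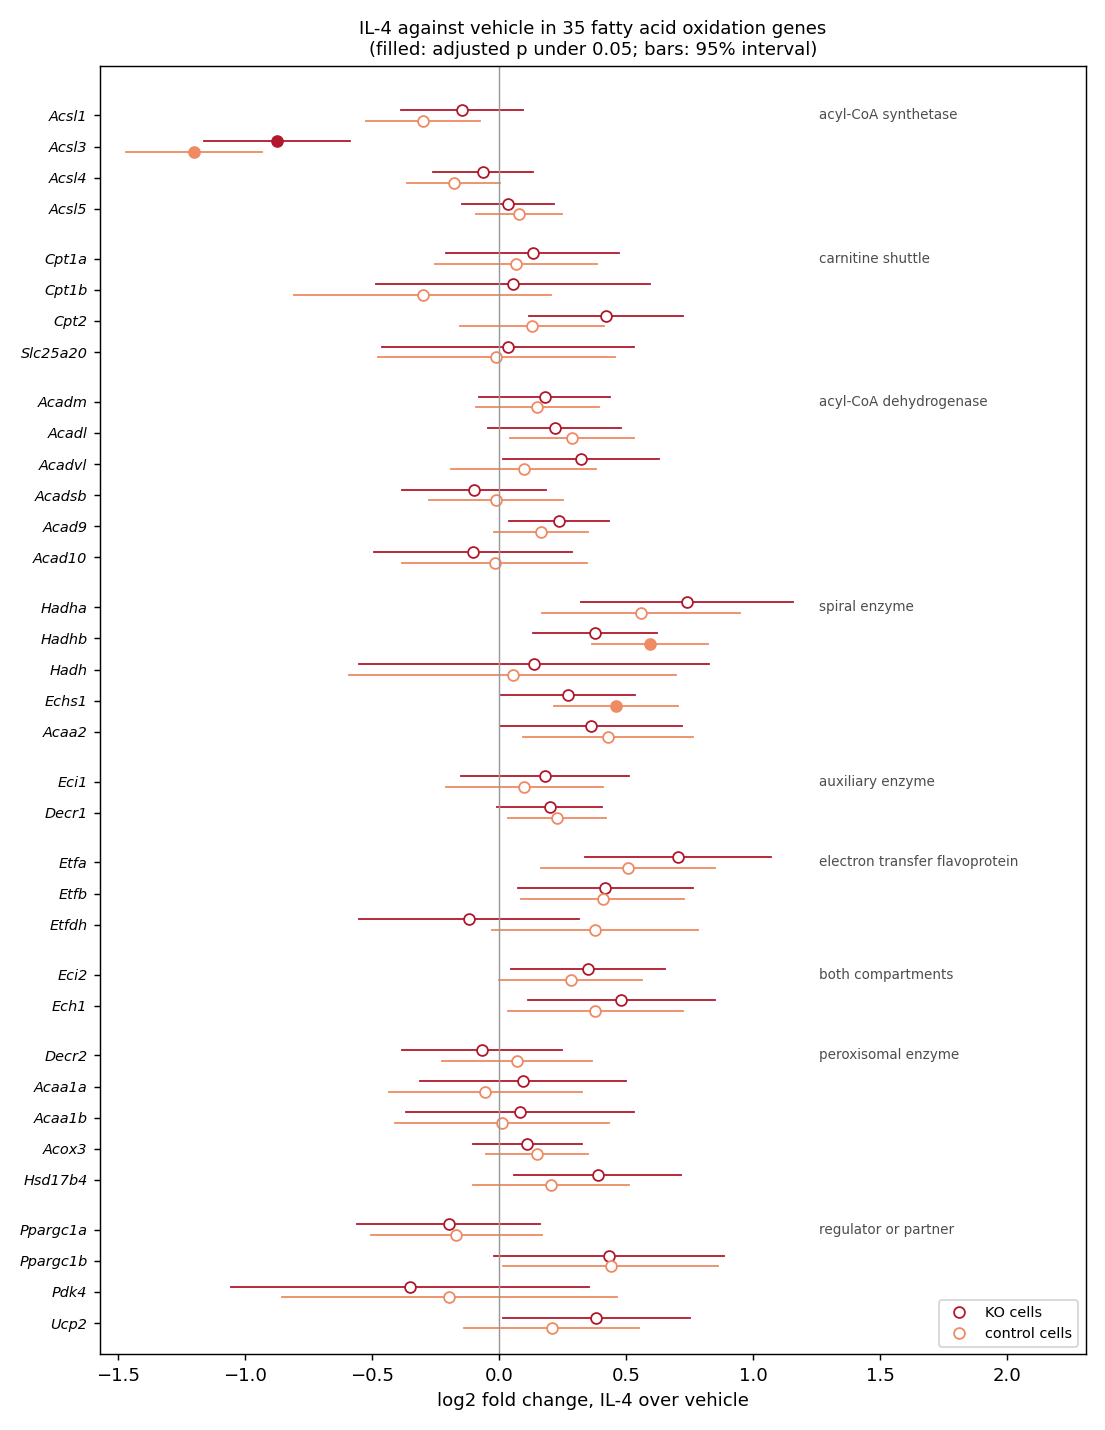
Log2 fold change of IL-4 over vehicle (x axis) with its 95% interval for the 35 members tested, grouped by role (y axis), in KO cells (dark) and control cells (light); filled points passed at an adjusted p under 0.05. Acsl3 lies to the left of 0 in both genotypes (-0.87 and -1.20), and 17 and 16 of the 20 mitochondrial enzymes lie to the right of 0, with Hadhb and Echs1 filled in control cells.

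The electron transfer flavoprotein collects electrons from all acyl-CoA dehydrogenases and hands them to the respiratory chain. Etfa, its α subunit, stood at 1.13, 1.89 and 1.39 on KO IL-4 arrays and 0.86, 0.85 and 0.59 on KO vehicle arrays. In control cells it stood at 1.06, 0.97 and 1.17 with IL-4 and 0.66, 0.50, 0.51 and 0.58 with vehicle. IL-4 arrays were above vehicle arrays in both genotypes, by 0.70 in KO cells (adjusted p = 0.0578, limma) and 0.51 in control cells (adjusted p = 0.0982, limma). Without KO IL-4 array 14 these were 0.49 (adjusted p = 0.104) and 0.51 (adjusted p = 0.0143). Etfb, the β subunit, averaged 1.84 ± 0.20 on KO IL-4 arrays and 1.42 ± 0.16 on KO vehicle arrays (SD, n = 3 each), and 1.73 ± 0.27 on control IL-4 arrays (n = 3) and 1.32 ± 0.14 on control vehicle arrays (n = 4), again without overlap (0.42 and 0.41, adjusted p = 0.269 and 0.177). Etfdh, the oxidoreductase that passes the electrons to ubiquinone, stood at -0.88, -0.94 and -0.12 on KO vehicle arrays and -0.98, -1.39, -1.28 and -1.31 on control vehicle arrays. The groups did not overlap (0.59, adjusted p = 0.117, limma), and array 7 lay far above the other 2 KO arrays. A dimmer Etfdh probe gave 0.01 for the same comparison (adjusted p = 0.998, limma), so its probes disagree. With IL-4, Etfdh differed by -0.12 in KO cells and 0.38 in control cells. Over all members, 11 had several probes that passed the filter, and 4 to 5 of these in each comparison had a probe of the opposite sign.

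Of the 5 peroxisomal enzymes tested, 1 passed, and it passed for genotype. Among all genes, 1.94% rose with loss of HDAC3 under IL-4 and 2.39% with vehicle. The 5 enzymes are too few to set against these shares. Acox3, an acyl-CoA oxidase that acts on branched-chain substrates, stood at 4.97, 5.03 and 4.81 on KO IL-4 arrays and 4.43, 4.26 and 4.43 on control IL-4 arrays. With vehicle it stood at 4.85, 4.86 and 4.77 on KO arrays and 4.18, 4.20, 4.15 and 4.35 on control arrays. Every KO array lay above every control array, whichever the treatment. The log2 fold change was 0.56 under IL-4 (SE 0.0978, adjusted p = 0.00783, limma), 1.48-fold, and 0.60 with vehicle (SE 0.0915, adjusted p = 0.00259, limma), 1.52-fold. The vehicle call held in 26 of 26 other settings, and the IL-4 call was lost with median scaling (0.0604) and when only the groups compared were fitted (0.180). Within slides the difference was 0.54 and 0.77 under IL-4 (slides 1 and 2) and 0.66, 0.65 and 0.62 with vehicle (slides 1, 2 and 3). IL-4 itself moved Acox3 by 0.11 in KO cells and 0.15 in control cells, with overlap, and the interaction was -0.04 (95% interval -0.33 to 0.25).

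The other peroxisomal members did not pass. Hsd17b4, the multifunctional enzyme for branched chains, averaged 2.01 ± 0.17 on KO IL-4 arrays and 1.63 ± 0.20 on KO vehicle arrays (SD, n = 3 each), without overlap (0.39, adjusted p = 0.295, limma). The thiolases Acaa1a and Acaa1b differed by at most 0.22 in each comparison, with overlap, and 1 dimmer Acaa1a probe lists accessions of both genes. Decr2, the peroxisomal dienoyl-CoA reductase, lay lower on every KO array than on every control array under IL-4 (-0.31, adjusted p = 0.353). Ehhadh, the bifunctional enzyme for straight chains and a known PPARα target in liver, was not tested: it was well above background on KO IL-4 arrays 13 and 14, KO vehicle array 6 and control vehicle array 2, and its level ranged from -5.11 to -3.19 over all arrays. Of the members found in both compartments, Ech1 differed by 0.48 in KO cells and 0.38 in control cells with IL-4, without overlap (adjusted p = 0.225 and 0.278), and Eci2 by 0.35 and 0.28. Acad11 was well above background on 2 arrays and was not tested.

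**Figure D3:**
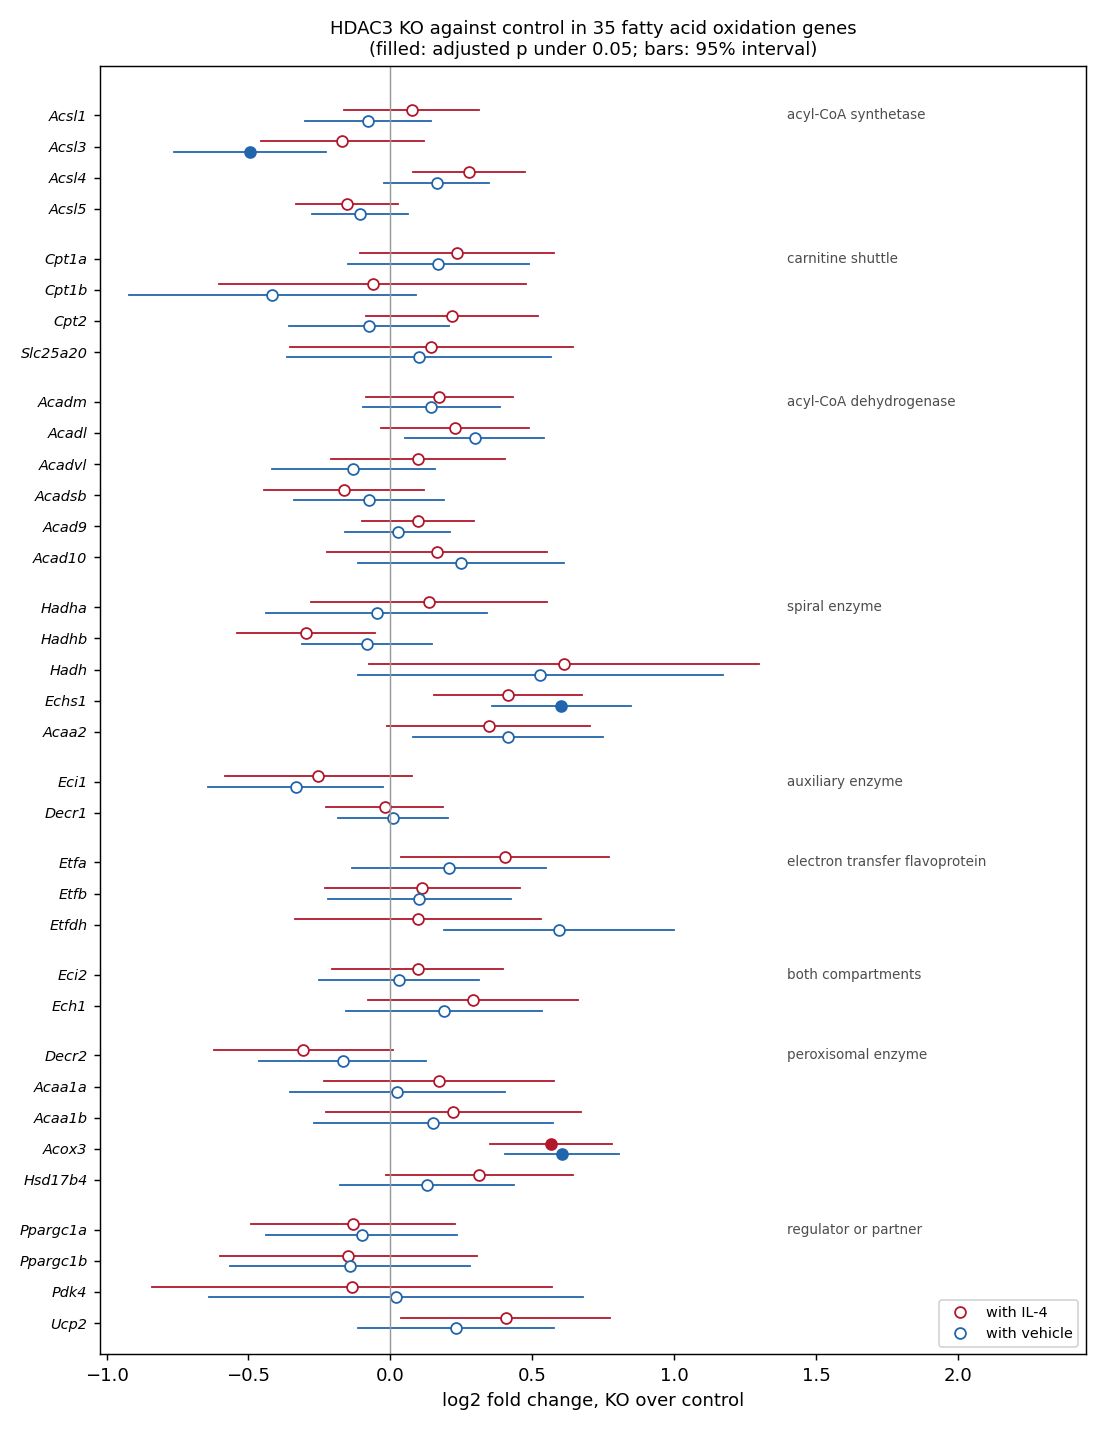
Log2 fold change of KO over control (x axis) with its 95% interval for the 35 members tested, grouped by role (y axis), with IL-4 (red) and with vehicle (blue); filled points passed at an adjusted p under 0.05. Acox3 is filled under both treatments (0.56 and 0.60), Echs1 and Acsl3 with vehicle.

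By compartment, the 20 mitochondrial enzymes tested had a median log2 fold change with IL-4 of 0.21 in KO cells and 0.16 in control cells, and the 5 peroxisomal enzymes 0.09 and 0.07. The medians over all genes were -0.06 and 0.00. Of the 20 mitochondrial enzymes 10 lay higher without overlap in each genotype (8.05% of all genes in KO cells, 8.26% in control cells) and 0 lay lower (10.5% and 8.41%). Hadha, Acad9 and Decr1 were among the 10 in each genotype, and their other probes gave smaller or opposite differences. Of the 5 peroxisomal enzymes 1 and 0 lay higher, too few to set against those shares. For loss of HDAC3 the mitochondrial median was 0.14 under IL-4 and 0.10 with vehicle, the peroxisomal 0.22 and 0.13, and that of all genes -0.03 and 0.02. The difference between compartments was not tested.

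Array 14 weighs on the values of KO cells given IL-4. It was the highest of its 3 arrays for 27 of the 35 members, among them 16 of 20 mitochondrial enzymes, against 36.1% of all genes. Control vehicle array 2 was the lowest of its 4 arrays for 24 of the 35 members, against 28.6% of all genes, and control IL-4 array 10 the lowest of its 3 for 24, against 34.6%. All 3 of these arrays lay on slide 2, whose KO vehicle array 6 was the highest of its group for 16 members and the lowest for 8. The median member minus the median of all genes was 0.24 with IL-4 in KO cells and 0.08 without array 14, and for loss of HDAC3 under IL-4 it was 0.16 and 0.03. The HDAC3 value was also 0.09 without control IL-4 array 10 and 0.25 without KO IL-4 array 13, and that of IL-4 in control cells, 0.13, was 0.05 without control vehicle array 2. Leaving array 14 out gave 14 members higher with IL-4 in KO cells without overlap, against 11.6% of all genes in that setting, and put 3 lower.

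**Figure D4:**
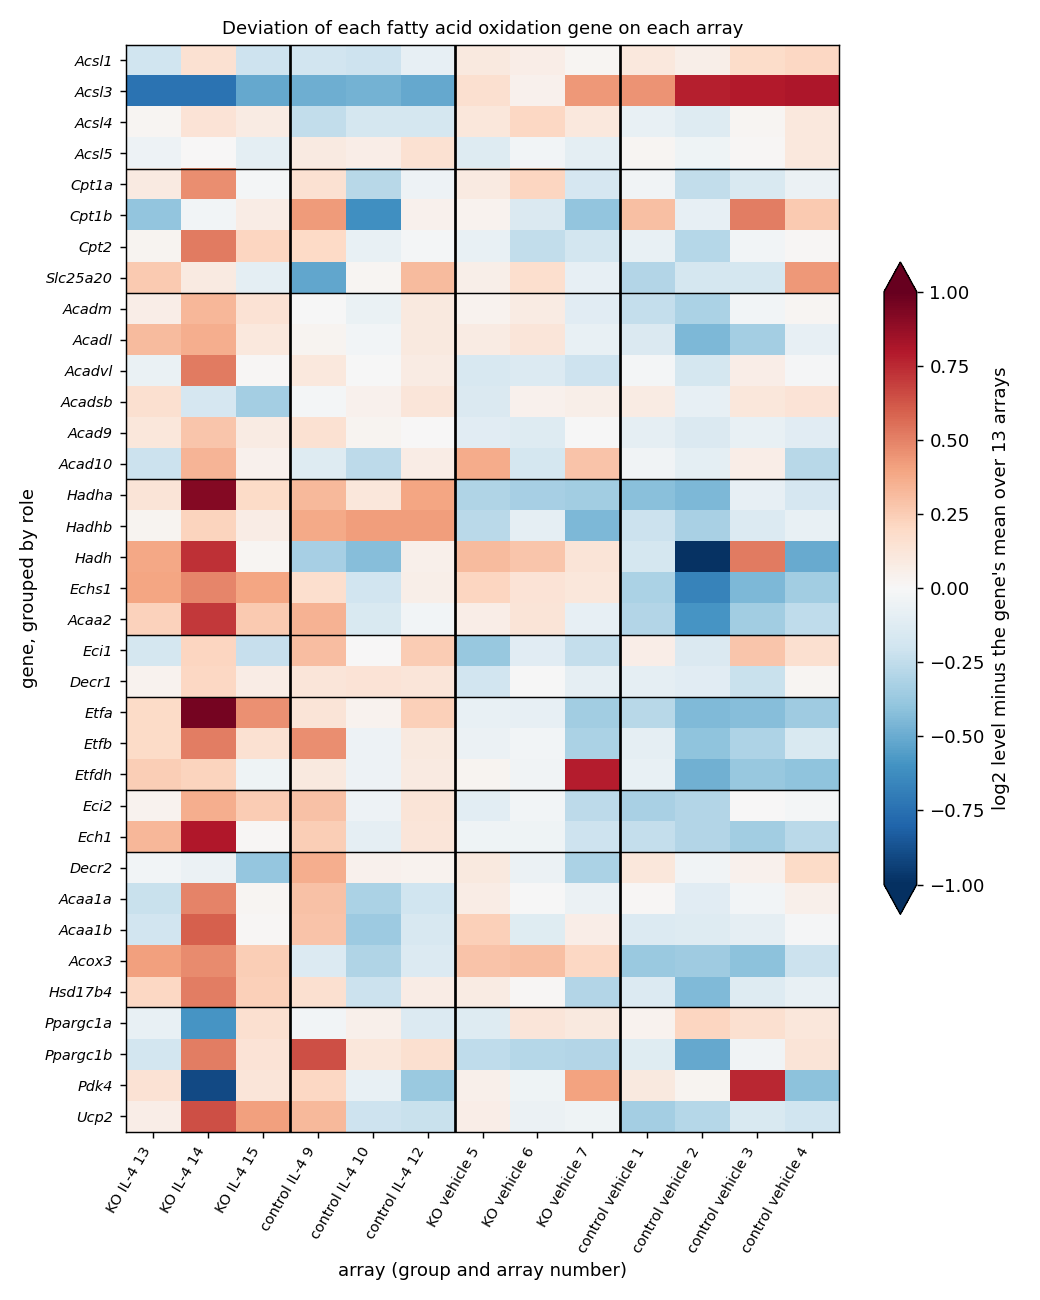
Log2 level minus the gene's mean over 13 arrays (colour, blue below and red above) for the 35 members tested (rows, grouped by role) on each array (columns, grouped by treatment and genotype). KO IL-4 array 14 lies above the mean for 29 of 35 members and control vehicle array 2 for 4 of 35.

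Of the regulators and partners, 0 of 4 passed limma's test in any comparison, and 3 values reached an unadjusted p under 0.05. Over all genes the shares were 1.1% to 3.05% in a direction and 12.4% to 14.9%, and 4 genes are too few to set against them. Ppargc1b, a coactivator of mitochondrial genes known to rise in macrophages given IL-4, stood at -1.17, -0.47 and -0.84 on KO IL-4 arrays and -1.24, -1.26 and -1.28 on KO vehicle arrays. In control cells it stood at -0.34, -0.87 and -0.82 with IL-4 and -1.11, -1.49, -1.01 and -0.86 with vehicle. The KO groups did not overlap and the control groups did, with log2 fold changes of 0.43 (95% interval -0.02 to 0.89) and 0.44 (0.02 to 0.86) and adjusted p = 0.427 and 0.316 (limma). This probe matches a cDNA clone, and a dimmer RefSeq probe gave 0.10 and 0.34. Its relative Ppargc1a differed by -0.20 and -0.17, with overlap. Pdk4, a kinase that inactivates pyruvate dehydrogenase, stood at 0.21, -0.83 and 0.18 on KO IL-4 arrays, 0.27, -0.01 and -0.30 on control IL-4 arrays, 0.11, 0.02 and 0.47 on KO vehicle arrays, and 0.16, 0.09, 0.82 and -0.35 on control vehicle arrays. All groups overlapped, and the 95% interval of its IL-4 response in KO cells ran from -1.05 to 0.36. Ucp2, a carrier of the inner mitochondrial membrane abundant in macrophages, stood at 4.90, 5.48 and 5.25 on KO IL-4 arrays, 5.16, 4.63 and 4.62 on control IL-4 arrays, 4.91, 4.78 and 4.80 on KO vehicle arrays, and 4.50, 4.56, 4.69 and 4.64 on control vehicle arrays. The KO arrays were above the control arrays with vehicle (0.23, adjusted p = 0.666) and overlapped them under IL-4 (0.41, adjusted p = 0.275). A dimmer probe gave 0.05 with vehicle and 0.38 under IL-4.

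Lists of neighbouring genes gave some further calls. Of 19 regulators tested, 2 rose with IL-4 in each genotype, against 1.12% of all genes in KO cells and 2.64% in control cells. With IL-4, 0 fell, against 1.1% and 3.05%. Pparg, a nuclear receptor of lipid metabolism, rose by 1.25 in KO cells (adjusted p = 0.00101, limma) and 1.03 in control cells (0.000904). Pdp1, a phosphatase that reactivates pyruvate dehydrogenase, rose by 0.71 and 0.52 (0.0101 and 0.0193). Loss of HDAC3 raised 2 and lowered 0 of the 19 under IL-4, against 1.94% and 1.65% of all genes. With vehicle it raised 1 and lowered 1, against 2.39% and 2.29%. Loss of HDAC3 raised Rxra, the partner of the PPAR receptors, by 0.66 under IL-4 and 0.55 with vehicle (0.0242 and 0.0361). It raised Sirt3, a mitochondrial deacetylase, by 0.59 under IL-4 (0.0253) and lowered Pparg with vehicle (-0.68, 0.0175). Of 17 further peroxisomal genes, 1 rose, Hacl1, an enzyme of α-oxidation, by 0.54 with loss of HDAC3 in vehicle (0.0447). In that comparison 2.39% of all genes rose. Of 12 tested genes of ketone body and branched-chain amino acid oxidation, 1 rose with IL-4 in each genotype, against 1.12% and 2.64% of all genes. It was Oxct1, which activates ketone bodies for use, by 0.69 in KO cells and 0.84 in control cells (0.00434 and 0.00031). Ivd, a dehydrogenase of leucine breakdown, rose by 0.94 with loss of HDAC3 under IL-4 (0.0211), where 1.94% of all genes rose. These lists are too small to set against such shares.

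RefSeq promoter windows (GRCm38.p6, 300 bases) were found for 32 members, 33 windows in all. None held, on either strand, the direct repeat bound by PPAR and RXR (AGGTCA repeated with any 1 base between), the ERR element (TCA directly before AGGTCA) or the STAT6 element (TTC and GAA with any 4 bases between). Of all 32851 windows, 0.04%, 0.423% and 6.953% held them. The 33 windows are too few to set against these shares. Sites outside the windows, or departing from these letters, were not looked for. The members' windows had a median G and C content of 60.7% and a median of 17 CpG dinucleotides, against 52.7% and 7 over all windows.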

How the data were processed

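The deposited array files hold linear intensity values from 1 channel (Cy3), made with Feature Extraction 10.5.1.1 per the file headers. The submitters' processing notes name version 9.53 and limma without a version. Per the labels' protocols, a NuGEN kit served for amplification and labelling of the RNA. The authors' deposited value table, also linear intensity, was used as an alternative after taking log2, with its normalization not stated by any source at hand. Control and outlier spots were left out, spots of a probe were averaged, and log2 of the deposited background-corrected signal was scaled to each array's 75th percentile. Of 41174 non-control probes, 101 had outlier spots only on some array, 29059 passed the filter on background, and 20894 genes remained. limma 3.58.1 in R 4.3.3 fitted 4 group means to all 13 arrays, tested on simulated data first. The number of arrays limits the precision: the median SD over genes was 0.245 on KO IL-4, 0.186 on control IL-4, 0.150 on KO vehicle and 0.181 on control vehicle arrays. Values over arrays are given for every member called and for 10 further members chosen by name, and Etfa, Etfdh and the probes of Hadha were picked for description after their values were seen. Genes of the related lists and macrophage markers are named where called. The members and lists were chosen with earlier results of these data known. Alternatives covered the scaling, background correction, probe filter and rule, variance model, slide, array weights and each array left out.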

Additional observations from a re-analysis of the deposited data

Results flagged for a closer look

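Among the 35 members, the 4 control vehicle arrays were looked at for a sample far from the others, which chance gives in about 1 of 20 groups, and 2 members had one. For Acsl3, control vehicle array 1 stood at -0.18 and the other 3 between 0.15 and 0.18, so that the gap to the nearest array made up 0.923 of the whole range. For Slc25a20, control vehicle array 4 stood at -1.85 and the other 3 between -2.58 and -2.46, a gap of 0.834 of the range.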

How the results depend on the processing

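The members called were counted again in 26 other settings, and the cause of each change was not tested. No call turned its direction. With IL-4 in KO cells (1 call), 2 members were called with quantile normalization alone, 3 with normexp and quantile normalization together, 2 with the authors' deposited values, 3 with only probes well above background on all arrays, 3 with a trended robust variance and 0 with only the groups compared, and 1 to 2 with an array left out. In control cells (3 calls), IL-4 gave 5 with quantile normalization, 6 with normexp and quantile normalization together, 6 with the authors' deposited values, 10 with array weights and 2 to 6 with an array left out (6 without KO IL-4 array 14). For loss of HDAC3 under IL-4 (1 call) the counts were 2 with quantile normalization, 0 with median scaling, 2 with normexp and quantile normalization together, 3 with a trended robust variance, 0 with only the groups compared and 3 with array weights, and 1 with any array left out. With vehicle (3 calls) they were 1 with median scaling, 6 with normexp and quantile normalization together, and 1 to 3 with an array left out (1 without KO vehicle array 5). Of 70 results followed for 14 members, 10 gained a call somewhere, Etfa with IL-4 in both genotypes among them, and 19 without a call changed sign. Without the 2 arrays with the fewest spots well above background, a setting chosen after seeing the data, 1 member was called with IL-4 in KO cells, 2 in control cells, and 1 and 2 for loss of HDAC3 under IL-4 and with vehicle. No paired analysis was possible because the array numbers in the labels are unique to each array and no number is shared between groups; slide was used as a block instead. The precision is limited by 3 or 4 arrays a group, and Acads, Acad11 and Ehhadh by signal near background.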
